A study of Saccharomyces cerevisiae with 24 samples.

Results

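The genes described here encode factors that build the large (60S) subunit of the ribosome in budding yeast. The list held 49 genes, and each was read from the probe set that carries its symbol alone, taking the one with the highest mean signal. 48 of the 49 had such a probe set, and all 48 passed the filter on dim signals, among 5172 genes tested of 5656 with a probe set. The member without one is MDN1, the large AAA ATPase that pulls assembly factors off the particle. The data were 24 one-colour Affymetrix S98 arrays of BY4730, a haploid MATa laboratory strain that lacks LEU2, MET17 and URA3, which all groups share. Values are log2 signals after quantile normalization, and a difference of 1 on this scale is a doubling of the signal. The RNA came from whole cultures, so fewer cells expressing a gene and less of its RNA per cell cannot be told apart.

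Cells were exposed for 120 min. 11 control arrays came from cells given the solvent DMSO (the control for cisplatin, MMS and bleomycin) or left in medium (the control for NaCl and ethanol), and the labels do not say which control array is which. 3 arrays followed bleomycin, which breaks DNA strands (0.15, 0.1 and 0.15 U/ml in replicates 1 to 3), and 3 followed methyl methanesulfonate (MMS), which methylates DNA (0.12%, 0.12% and 0.14%). 2 followed cisplatin, which crosslinks DNA (500 and 650 ug, with no volume given). 3 followed NaCl (10%, 8% and 9%) and 2 followed ethanol (15%). The protocol text gives other doses for cisplatin and NaCl than the titles. The titles give each array of a group its own day, but the labels do not say that the arrays came from separate cultures. The p-values measure the spread left after the agent and day terms, pooled over all groups. It includes differences in response between days and doses and may be technical in part.

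As background, the large subunit is assembled in the nucleolus around the precursor of its ribosomal RNA. Helicases and RNA-binding proteins fold the RNA, scaffold complexes hold early particles together, GTPases and AAA ATPases drive the remodelling steps and the exit from the nucleolus, and the last factors leave in the cytoplasm. The genes for these factors belong to the ribosome biogenesis regulon, which in yeast is known to be transcribed at rates that follow growth and to fall in many stresses.

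3 arrays stood apart from the rest. NaCl replicates 2 and 3 and control replicate 11 had an ACT1 3′ signal of 7.98, 8.21 and 9.37, while the other 21 arrays lay at 10.5 or more, and these 3 are called the low-3′ arrays. The ACT1 5′ signal ran from 4.53 to 10.6 and parted the arrays at 7.5 into 11 above and 13 below. All 3 MMS arrays (8.35 to 8.83) were above that limit and their same-day controls (4.76 to 5.93) below it. All NaCl and ethanol arrays were below it, and bleomycin, cisplatin and control arrays fell on both sides. The strain's markers matched its genotype in the controls for URA3 (3.43 ± 0.244, SD, n = 11), MET17 (3.89 ± 0.214) and the a-factor genes MFA1 and MFA2 (12.3 ± 0.400 and 12.0 ± 0.286), while LEU2 read 5.68 ± 0.399, in the middle of the range.

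The mean signal of the 48 genes over the 24 arrays ran from 4.19 to 8.79, and the median of the 48 genes in a control array ran from 5.48 to 7.02, with a median of 6.71 over the 11 arrays. Control replicates 11, 6 and 7 were the lowest, at 5.48, 5.77 and 6.04, and 30 of the 48 genes had their lowest control level in replicate 11. The standard deviation of a gene over the control arrays had a median of 0.56 for these genes and 0.45 for all genes tested. NOP4, an RNA-binding protein of early particles, varied least (SD 0.12), and NIP7, another early factor, varied most (SD 1.30). With ethanol the medians were 7.25 and 7.40, above every control array. With NaCl they were 7.75, 5.42 and 5.44, so that 1 array stood above and 2 below all control arrays. With MMS they were 5.76, 5.75 and 5.78, near control replicate 6 and below the 9 controls with higher medians. Bleomycin gave 5.98, 6.38 and 6.43, and cisplatin gave 5.76 and 6.15, all inside the range of the controls.

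**Figure D1:**
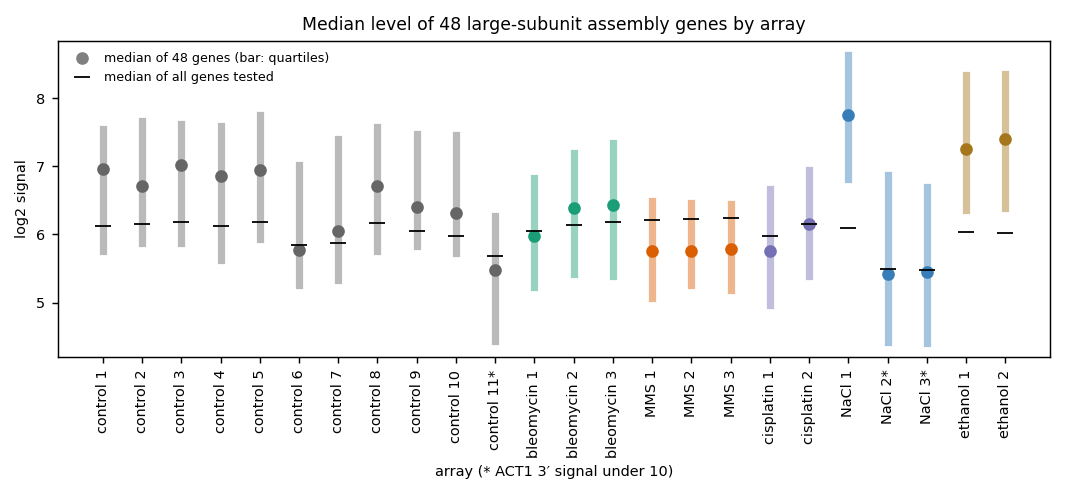
Median log2 signal of the 48 large-subunit assembly genes on each of the 24 arrays (points, coloured by group), with the quartiles of the genes (bars) and the median of all genes tested (black ticks). The ethanol arrays (7.25 and 7.40) and NaCl replicate 1 (7.75) lie above every control array, and NaCl replicates 2 and 3 (5.42 and 5.44) lie with control replicate 11 (5.48). An asterisk marks an array with an ACT1 3′ signal under 10.

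Of the members with the highest mean signal in their role, MRT4, RPF2, ERB1, RLP7 and NOP2 read above every control on both ethanol arrays. The order of the other groups differed between these genes. MRT4, which holds the place of the stalk protein P0 in the particle, read 7.37, 9.20 and 9.35 in the controls (lowest, median and highest), 10.6 and 10.6 with ethanol, and 10.2, 6.20 and 6.53 with NaCl. RPF2, which loads the 5S particle together with RRS1, read 6.72, 8.54 and 9.04 in the controls, 10.0 and 9.72 with ethanol, and 7.21, 7.29 and 7.25 with MMS. Both were above all controls on the ethanol arrays. ERB1, a scaffold of the Nop7-Erb1-Ytm1 complex, read 6.62, 7.81 and 8.22 in the controls and 8.44 and 8.42 with ethanol, above every control. RLP7, which resembles a ribosomal protein and acts in early processing, read 7.33, 8.04 and 8.31 in the controls, 9.18 and 9.38 with ethanol and 6.83, 6.84 and 6.85 with MMS. Its ethanol arrays lay above, and its MMS arrays below, all 11 controls. NOP2, a methyltransferase of the large ribosomal RNA, read 3.20, 6.55 and 6.93 in the controls, 7.86 and 7.77 with ethanol, and 5.06, 5.27 and 5.12 with MMS, where it overlapped the controls only through control replicate 11 and replicate 6. The highest of the helicases (SPB4) and of the GTPases (NOG2) did not read above every control on the ethanol arrays and are described with the agents.

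**Figure D2:**
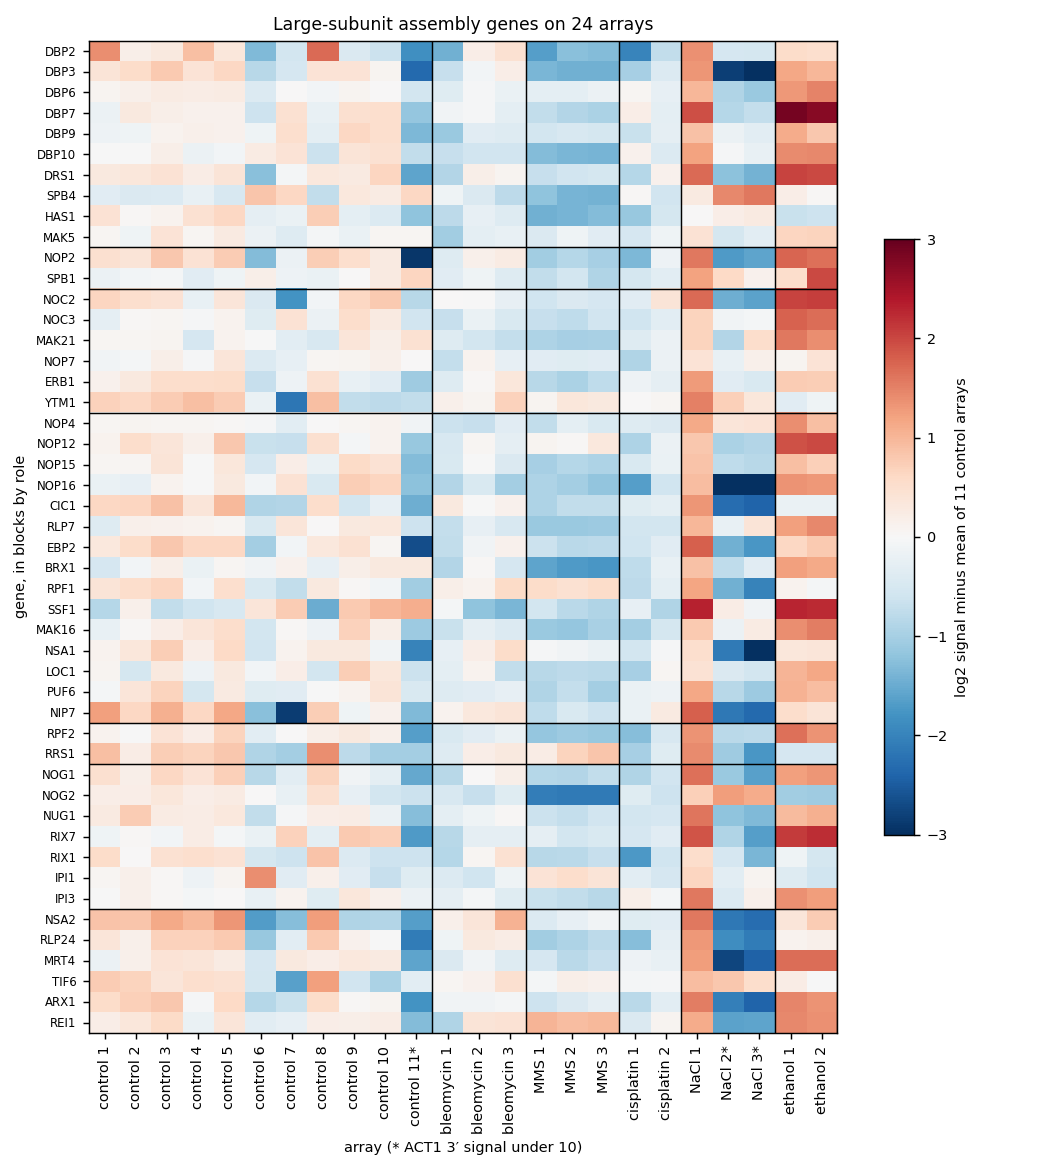
Log2 signal of each of the 48 genes on each array, minus the gene's mean over the 11 control arrays (red higher, blue lower, colour range -3 to 3), with genes in blocks by role and arrays in blocks by group. Most rows are red on both ethanol arrays and on NaCl replicate 1 and blue on the 3 MMS arrays, and many are dark blue on the arrays marked with an asterisk (ACT1 3′ signal under 10).

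With ethanol 9 of the 48 genes were called higher than in the same-day controls and 0 lower, where 5.1% of all genes tested were called, 3.89% higher and 1.22% lower. Most of the others had estimates above 0 that did not pass the test. The median change of the 48 genes against the same-day controls was 1.33, where all genes tested had a median of 0.14. Estimates were above 0 for 44 of the 48 (91.7%, against 58.3% of all genes). On both days most of the genes read above the control of the day, with a median difference of 1.51 (43 of 48 higher) and 1.19 (44 higher). 43 genes were higher on both days, 89.6% of the 48, where 46.6% of all genes tested were. On both ethanol arrays 30 genes (62.5%) lay above all 11 controls, as did 16.8% of all genes tested, and NOG2 alone lay below them (9.44% of all genes). 4 genes, SPB4, HAS1, NOG2 and IPI1, were lower on both days (8.33%, against 32.1%).

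The 9 genes called (limma, Benjamini-Hochberg adjusted p under 0.05 over all genes tested) were DBP7, NOC2, NOC3, MAK21, NOP4, NOP12, SSF1, MAK16 and TIF6. An unadjusted p under 0.05 was found for 30 of the 48 and for 1237 of all 5172 genes tested. NOC2, the shared partner of the Noc scaffold complexes, read 6.17 and 6.22 with ethanol against 3.72 and 2.35 in the same-day controls, and 2.35, 4.52 and 4.93 over the 11 controls. Both ethanol arrays lay above every control, and the change was 3.16 ± 0.715 (SE) with an adjusted p of 0.0294. Both same-day controls lay under the limit of the filter on dim signals (3.79), so the size of the change is uncertain and no fold is given. Control replicate 7 had the lowest NOC2 level of the control arrays. NOC3, which pairs with NOC2 in intermediate particles, read 7.62 and 7.55 against 5.29 to 6.39 in the controls, with no overlap. It rose by 1.68 ± 0.333 (adjusted p = 0.0182).

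DBP7, a DEAD-box helicase of the earliest particles, read 8.32 and 8.19 with ethanol against 4.31, 5.59 and 5.96 in the controls (lowest, median and highest). The groups did not overlap, and it rose by 2.88 ± 0.640 (adjusted p = 0.0286). NOP12, an RNA-binding protein needed for early processing, read 6.25 and 6.30 against 3.19, 4.44 and 5.13, also without overlap, and rose by 2.63 ± 0.439 (adjusted p = 0.0099). Its same-day controls (3.67 and 3.63) also lay under that limit, so the size is uncertain. MAK16, which enters early particles with RPF1, read 6.84 and 6.99 against 4.35 to 6.13 and rose by 1.73 ± 0.386 (adjusted p = 0.0293). SSF1, a Brix-domain protein of the early particle, read 8.92 and 8.86 against 5.14, 6.77 and 7.71 and rose by 1.70 ± 0.374 (adjusted p = 0.027). SSF1 has a close copy, SSF2, and how far its probe set also reads SSF2 is not given, so its values are uncertain.

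The ethanol calls rest on few arrays. Leaving out control replicate 6 left 1 call (1.53% of all genes were called), and leaving out control replicate 7 left 0 (0.116%). Leaving out ethanol replicate 1 or 2 left only 1 ethanol array. The calls of the 6 genes described above ended in each of these fits. With ethanol replicate 1, whose title gives another year than its control, taken as a day of its own, 1 call was left (1.53% of all genes). Without the 3 low-3′ arrays, none of which is an ethanol array or its control, 39 genes were called higher and 3 lower (26.7% and 16% of all genes), with a median change of 1.38. The 3 called lower there were SPB4, NOG2 and IPI1. Among arrays with a low ACT1 5′ signal, which include both ethanol arrays and their controls, and with no day block, 1 gene was called higher and 0 lower (0.773% and 0.445% of all genes), with a median of 1.15.

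**Figure D3:**
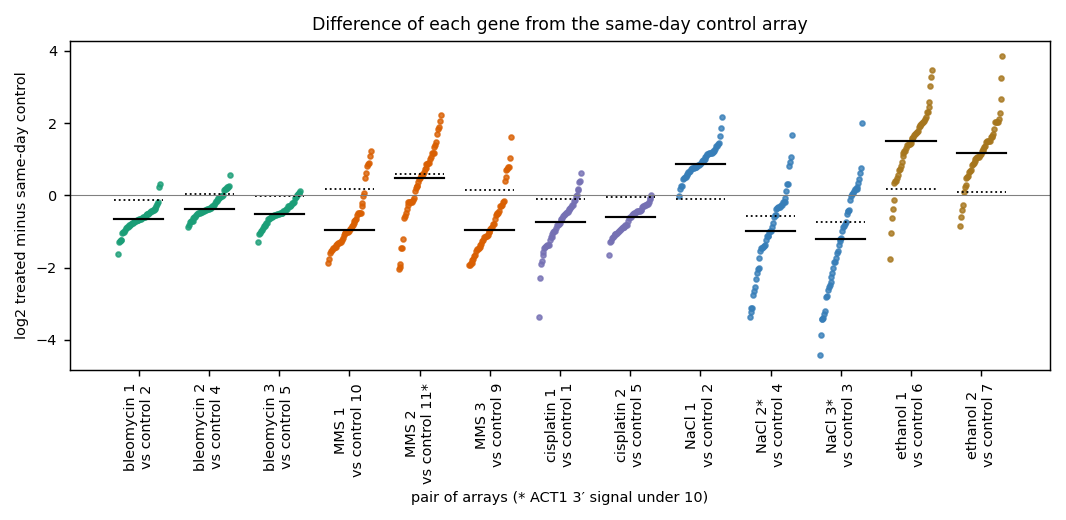
Log2 difference of each of the 48 genes between a treated array and the control array of its day, sorted within each of the 13 pairs (points), with the median of the 48 genes (solid line) and of all genes tested (dotted line). Both ethanol pairs lie mostly above 0 (medians 1.51 and 1.19), all bleomycin and cisplatin pairs mostly below, and the pairs with an asterisked array (ACT1 3′ signal under 10) differ from the other pairs of their agent.

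With NaCl the 3 pairs did not run the same way. On the first day 47 of 48 genes were higher than the control, with a median difference of 0.88. On the other 2 days 41 and 36 of 48 were lower, with medians of -0.98 and -1.20, while the medians of all genes there were -0.57 and -0.73. The NaCl arrays of those 2 days are low-3′ arrays, with an ACT1 3′ signal lower by 3.69 and 3.72 than the same-day controls, against 0.91 lower on the first day. The part of the RNA state in these values was not tested apart from the count without these arrays, and the doses also differed between the days.

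In the fit over all arrays, 51.7% of all genes were called with NaCl. Of the 48, 5 were called higher (13.9% of all genes) and 4 lower (37.8%), with a median of -0.27 against -0.46 for all genes. SPB4, a helicase of late nucleolar particles, read 8.60, 9.75 and 9.91 with NaCl against 7.58, 8.09 and 9.15 in the controls. NaCl replicates 2 and 3 lay above all controls and replicate 1 among them, and SPB4 rose by 1.42 ± 0.305 (adjusted p = 0.00469). NOG2, a GTPase that holds the place of the export adaptor Nmd3, read 8.85, 9.38 and 9.25 against 7.48, 8.33 and 8.62, with no overlap. It rose by 0.81 ± 0.229 (adjusted p = 0.0139).

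NOP4 read 6.91, 6.12 and 6.16 with NaCl against 5.44, 5.82 and 5.86 in the controls, also without overlap, and rose by 0.62 ± 0.210 (adjusted p = 0.0283). SSF1 read 8.94, 6.84 and 6.51 and rose by 1.19 ± 0.295 (adjusted p = 0.00826), although replicates 2 and 3 lay within the range of the controls as a whole. SPB1, a methyltransferase of the large ribosomal RNA, read 6.49, 5.89 and 5.42 against 4.95, 5.20 and 5.93 and rose by 0.79 ± 0.294 (adjusted p = 0.0409). On all 3 NaCl arrays 2 of the 48 genes, NOP4 and NOG2, lay above all controls (2.17% of all genes), and 0 lay below (5.22%). On each of the 3 days these 5 genes were higher than the control of the day, as TIF6 was too. 6 genes in all were higher in every pair (12.5%, against 16.2% of all genes), and 0 were lower in every pair (39.3% of all genes).

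The 4 genes called lower with NaCl were high on the first day and low on the 2 days of the low-3′ arrays. The helicase DBP3 read 7.96, 3.82 and 2.99 against 4.32, 7.06 and 7.42 in the controls, with a change of -2.19 ± 0.830 (adjusted p = 0.0436). CIC1, a nucleolar RNA-binding factor, read 7.84, 4.23 and 4.11, with a change of -1.76 ± 0.583 (adjusted p = 0.0264). NSA1, a factor of early nucleolar particles, read 6.36, 3.72 and 2.72, with a change of -1.92 ± 0.632 (adjusted p = 0.0257). Each of these genes was above its same-day control in replicate 1 and below all 11 control arrays in replicates 2 and 3. NSA2, which stays on the particle until late, read 8.55, 4.82 and 4.68, with a change of -1.83 ± 0.645 (adjusted p = 0.0335), and showed the same split. DBP3 in replicate 3 and NSA1 in replicates 2 and 3 lay under the limit of the filter (3.79).

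Without the low-3′ arrays, NaCl rested on 1 pair, and 27 genes were called higher and 0 lower (7.02% and 9.63% of all genes), with a median of 1.06. The lone NaCl array is then assumed to vary as the other groups do. There DBP3 changed by 1.05, CIC1 by 0.62, NSA1 by 0.38 and NSA2 by 0.87, all turned in sign, and DBP3 and NSA2 were called higher (adjusted p = 0.0381 and 0.0491). SPB4 and NOG2 changed by 0.56 and 0.51 there and were not called (adjusted p = 0.206 and 0.215). In the other direction, leaving out NaCl replicate 1 raised the calls from 9 to 33, where 71.8% of all genes were called. Leaving out NaCl replicate 2, NaCl replicate 3 or control replicate 3 left 2 (17.1%, 15.9% and 15.8% of all genes). Leaving out control replicate 4 left 4 (34.3%), and leaving out control replicate 2 gave 14 (51.9%). SPB4 and SSF1 kept their calls whichever of these arrays was left out, but each lost its call in 5 of the 22 settings run. SPB4 was 0.0002 with the ACT1 5′ class as block and without the low-3′ arrays (adjusted p = 0.9999). SSF1 was 0.81 without the day block (adjusted p = 0.202), 0.19 with the class as block (adjusted p = 0.714) and 0.15 among arrays with a low ACT1 5′ signal (adjusted p = 0.855). The calls of DBP3, CIC1, NSA1 and NSA2 ended without control replicate 3 or 4 or NaCl replicate 2 or 3, that of NOG2 without control replicate 3 or NaCl replicate 2 or 3, that of SPB1 without any of the 6, and that of NOP4 without any of them but control replicate 4. Of the 22 settings, 9 ended the calls of NOG2 and NOP4, 10 those of SPB1 and NSA1, and 12 those of DBP3, CIC1 and NSA2. Median scaling ended those of NOG2 and NOP4. Values as deposited and averaged probe sets also ended that of NOG2. Among arrays with a low ACT1 5′ signal and with no day block, 1 gene was called higher and 0 lower (1.45% and 6.07% of all genes).

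**Figure D4:**
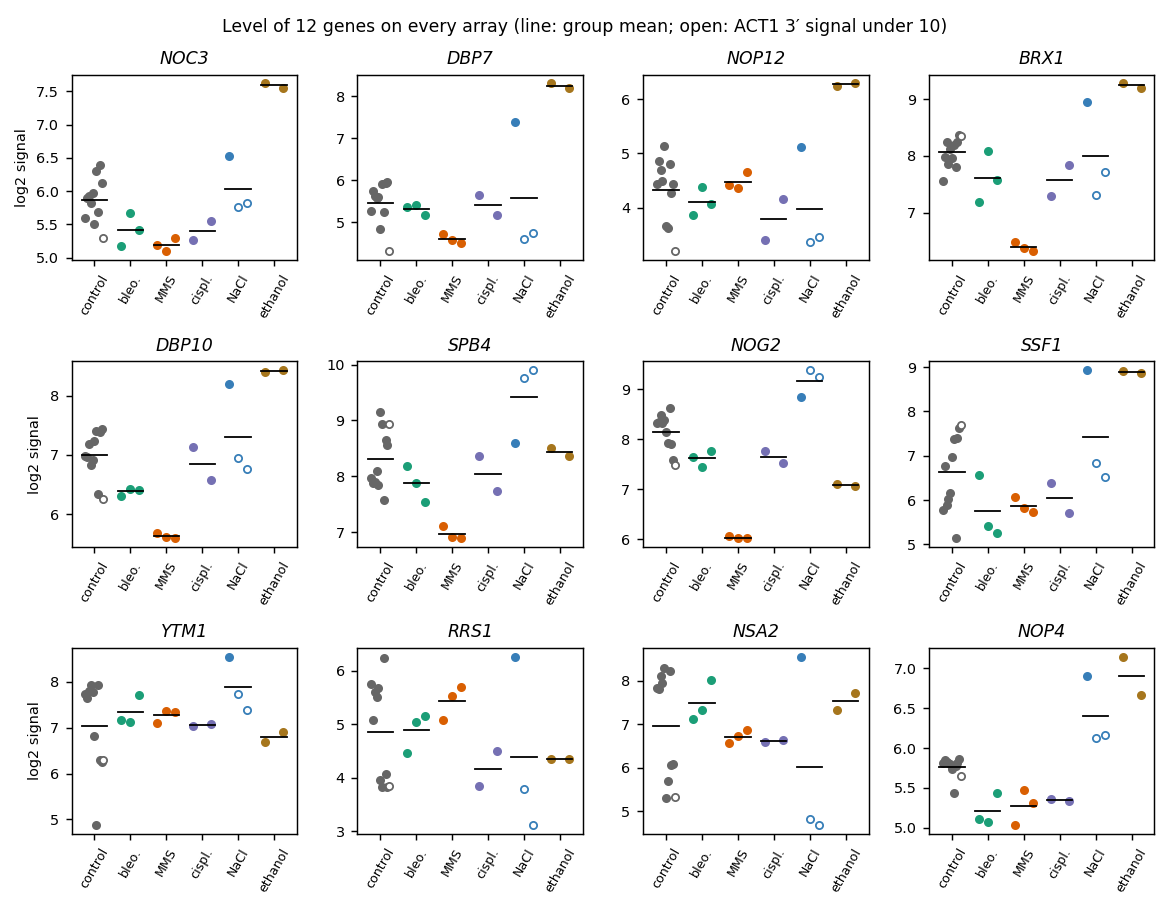
Log2 signal of 12 of the genes on every array, by group (points; open points are arrays with an ACT1 3′ signal under 10), with the group mean (line) and a separate vertical scale for each gene. NOC3, DBP7 and NOP12 are highest with ethanol without overlap with the controls, BRX1, DBP10, SPB4 and NOG2 are lowest with MMS, and YTM1, RRS1 and NSA2 spread widely over the control arrays.

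With MMS 12 genes were called lower and 4 higher, where 50.6% of all genes were called, 17% lower and 33.6% higher, and the median change was -0.40 against 0.30 for all genes. The genes called lower were DBP10, SPB4, HAS1, SPB1, NOC3, MAK21, RLP7, BRX1, SSF1, MAK16, NOG2 and IPI3. 18 genes were lower in every pair (37.5%, against 26.8% of all genes) and 7 higher (14.6%, against 47.8%). All 3 MMS arrays lay below all 11 controls for 12 genes (25%, against 13.2% of all genes), and above them for REI1, which acts in the cytoplasm (28.7% of all genes). 2 of the 3 pairs had medians of -0.96 and -0.97, with 40 of 48 genes lower in each. The third, MMS replicate 2 against the low-3′ control replicate 11, had a median of 0.47, where all genes had 0.60, while the 3 MMS arrays themselves had medians of 5.75 to 5.78.

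BRX1, a Brix-domain protein of the first particles, read 6.48, 6.37 and 6.31 with MMS against 7.57, 8.13 and 8.36 in the controls. There was no overlap, and BRX1 fell by 1.94 ± 0.385 (SE, adjusted p = 0.00148). SPB4 read 7.11, 6.91 and 6.89, below all controls (7.58 or more), and fell by 1.74 ± 0.315 (adjusted p = 0.000785). NOG2 read 6.06, 6.03 and 6.02, more than 1 log2 unit below the lowest control (7.48), and fell by 1.62 ± 0.237 (adjusted p = 0.000177). These 3 genes and the helicase DBP10 kept their MMS call under all 22 alternative settings that were run.

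DBP10 read 5.69, 5.62 and 5.60 with MMS against 6.26, 6.98 and 7.44 in the controls, without overlap, and fell by 1.39 ± 0.339 (adjusted p = 0.00501). SSF1 read 6.07, 5.82 and 5.73 with MMS, inside the range of the controls as a whole (5.14 to 7.71) and below each same-day control, and fell by 1.71 ± 0.305 (adjusted p = 0.000708). The 5 control arrays with a high ACT1 5′ signal read 5.14 to 6.15 for SSF1 and the 6 with a low one 6.77 to 7.71, so its MMS arrays matched the former in level and their same-day controls belonged to the latter. Among arrays with a high ACT1 5′ signal alone, SSF1 changed by 0.08.

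4 genes were called higher with MMS. RRS1, the partner of RPF2 in loading the 5S particle, read 5.08, 5.53 and 5.69 with MMS against 3.83, 5.09 and 6.24 in the controls, and changed by 1.52 ± 0.538 (adjusted p = 0.0338). Its same-day controls (3.83, 3.84 and 4.07) lay just above the limit of the filter (3.79), so the size of this change is uncertain. YTM1, of the Nop7-Erb1-Ytm1 complex, read 7.11, 7.37 and 7.34 against 4.88, 7.64 and 7.93 and changed by 0.99 ± 0.378 (adjusted p = 0.0447). TIF6, which keeps the large subunit from joining the small one too early, read 7.85, 8.08 and 8.04 against 6.29, 8.27 and 9.13 and changed by 0.69 ± 0.251 (adjusted p = 0.0372). All 3 lay inside the range of the controls. For RRS1 and YTM1 the controls with a high ACT1 5′ signal read 5.51 to 6.24 and 7.73 to 7.93, above all controls with a low one (3.83 to 5.09 and 4.88 to 7.64), and the same-day controls of MMS belonged to the latter. Among arrays with a high ACT1 5′ signal alone, RRS1, YTM1 and TIF6 changed by -0.36, -0.60 and -0.57, turned in sign. The fourth, IPI1 of the Rix1 complex, read 6.14, 6.26 and 6.13 against 5.05, 5.77 and 7.12, changed by 0.90 ± 0.265 (adjusted p = 0.0136), and stayed above 0 in every setting run (0.43 to 1.06), but lost its call in 9 of 22. Among these were no day block (adjusted p = 0.206), the day as a random block (adjusted p = 0.179), the ACT1 5′ class as block (adjusted p = 0.278) and the ACT1 5′ signal as covariate (adjusted p = 0.178). The calls of RRS1, YTM1 and TIF6 ended when any of the 3 MMS arrays or their same-day controls was left out, and that of IPI1 when MMS replicate 1 or 2 or control replicate 10 or 11 was.

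Over the 48 genes, 8 were higher in all 5 control arrays with a high ACT1 5′ signal than in all 6 with a low one (11% of all genes tested were), and SSF1 alone was lower (7.04%). The 8 were DBP2, HAS1, YTM1, RRS1, NOG1, RIX1, NSA2 and RLP24. Among arrays with a high ACT1 5′ signal, with no day block, 42 genes were called lower and 2 higher with MMS (31.2% and 39.5% of all genes), with a median of -0.98. In the fit without the low-3′ arrays, 30 were called lower and 7 higher (25.9% and 37%), with a median of -1.02, and MMS then rested on 2 pairs. In the fit over all arrays, leaving out MMS replicate 1 or control replicate 10 left 6 calls (40.7% of all genes in each). Leaving out MMS replicate 3 or control replicate 9 left 8 (40.4% and 40.5%).

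Bleomycin gave mostly negative estimates that did not pass the test. The estimate was below 0 for 47 of the 48 genes (97.9%, against 58.4% of all genes), with a median of -0.67 against -0.08 for all genes. In every pair 35 genes were lower (72.9%, against 25.8% of all genes) and 0 higher (20.2%). The 3 pairs had medians of -0.67, -0.37 and -0.51, and without bleomycin replicate 1 the median of the fit was -0.27. Bleomycin replicates 1 and 2 shared their day and control array with NaCl replicates 1 and 2, and bleomycin replicate 3 with cisplatin replicate 2. The fitted estimates therefore also draw on those arrays, among them the low-3′ NaCl replicate 2. In the test 0 genes were called in limma's fit (1.89% of all genes were called, 1.49% higher and 0.406% lower). An unadjusted p under 0.05 was found for 6 of the 48 and for 532 of all 5172 genes tested. NOP16, a nucleolar factor with no change called, read 6.57, 6.99 and 6.44 against 6.23, 7.44 and 8.18 in the controls. Its fitted difference was -1.11 ± 0.751 (adjusted p = 0.704), while its same-day differences were -0.64, -0.45 and -1.29. DBP3 (same-day differences -1.25, -0.50 and -0.42) and EBP2, another nucleolar factor, had fitted differences of -1.10 ± 0.814 and -1.05 ± 0.696 (adjusted p = 0.733 and 0.701). All 3 overlapped the controls, and NOP4 alone lay below all 11 controls on every bleomycin array (5.11, 5.07 and 5.43 against 5.44 or more, 1.6% of all genes), and 0 lay above (5.61%). Without the low-3′ arrays, 13 genes were called lower and 0 higher (5.03% and 5.86% of all genes), with a median of -0.51. None of the low-3′ arrays is a bleomycin array or its control, but NaCl replicate 2 shares its day with bleomycin replicate 2. Among arrays with a high ACT1 5′ signal 13 were called lower and 0 higher (8.39% and 11.1%), and among those with a low one 0 were called (0% and 0.135%).

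Cisplatin gave mostly negative estimates over 2 pairs. Their median was -0.71 against -0.07 for all genes, and 45 of 48 estimates were below 0 (93.8%, against 56% of all genes). In both pairs 41 genes were lower (85.4%, against 39.5% of all genes) and 0 higher (30.7%). The pairs had medians of -0.73 and -0.60, although the ACT1 5′ signal differed by -5.38 in the first and by -0.13 in the second. In limma's fit 0 genes were called (0.464% of all genes were called, 0.329% higher and 0.135% lower). An unadjusted p under 0.05 was found for 8 of the 48 and for 653 of all 5172 genes tested. DBP2, a helicase with roles beyond the ribosome, read 5.92 and 7.16 against 6.06, 8.06 and 9.60 in the controls, a difference of -2.38 ± 0.717 (adjusted p = 0.204). RIX1, of the complex that recruits MDN1, read 4.77 and 5.89 against 5.86 or more in the controls, a difference of -1.78 ± 0.473 (adjusted p = 0.16). NSA2 read 6.60 and 6.64, inside the range of the controls, a difference of -1.60 ± 0.777 (adjusted p = 0.429). For DBP2 and RIX1 the first cisplatin array lay below all controls and the second did not. NOP4 again lay below all controls (5.36 and 5.33, 1.76% of all genes), and 0 genes lay above (5.14%). Leaving out the low-3′ arrays, 22 genes were called lower and 0 higher (12.9% and 7.04%), with a median of -0.69, and among arrays with a high ACT1 5′ signal, which hold 1 of the cisplatin arrays, 18 and 0 (7.02% and 9.34%). Among those with a low one 0 were called (0% and 0.0193%).

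**Figure D5:**
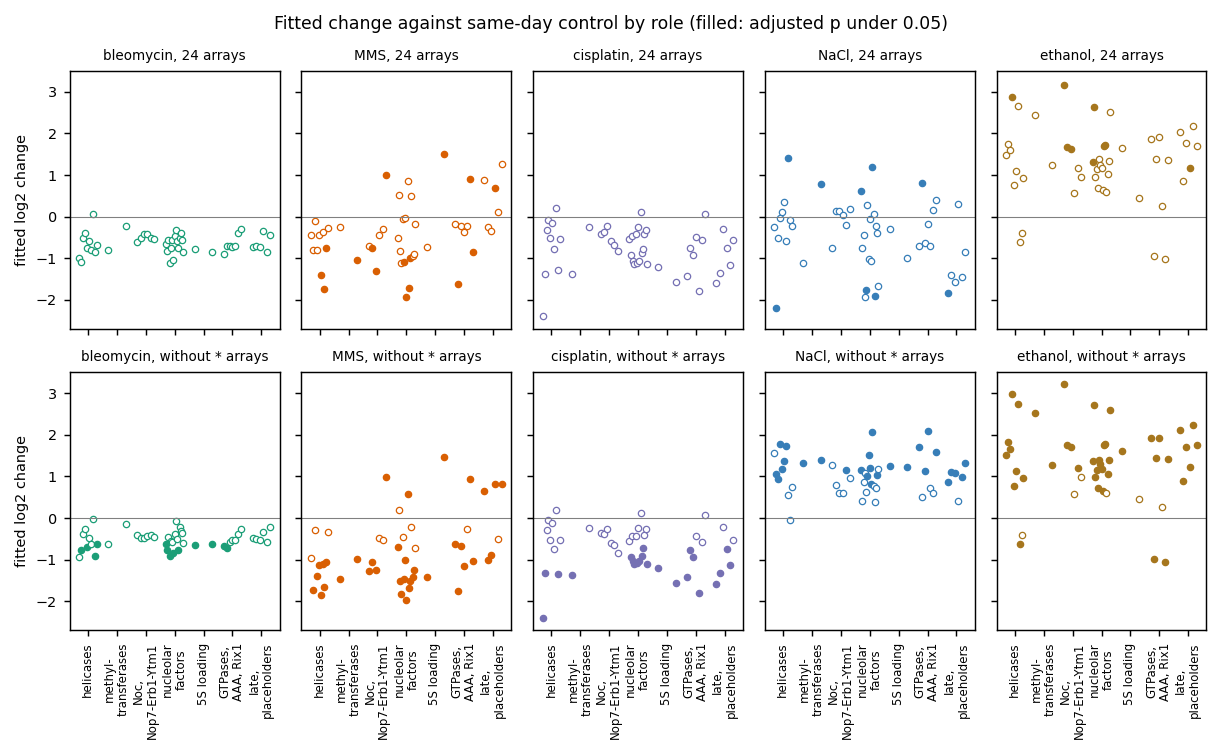
Fitted log2 change of each gene against the same-day controls, by role, for the 5 agents (filled points, adjusted p under 0.05). The upper row is the fit over 24 arrays and the lower row the fit without the 3 low-3′ arrays, where calls went from 0 to 13 for bleomycin, 16 to 37 for MMS, 0 to 22 for cisplatin, 9 to 27 for NaCl and 9 to 42 for ethanol.

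By role, with ethanol the median change was 1.29 for the 10 helicases, 1.40 for the 6 genes of the Noc and Nop7-Erb1-Ytm1 complexes, 1.25 for the 15 nucleolar and RNA-binding factors, 1.36 for the 7 GTPases, AAA ATPases and Rix1 complex genes and 1.73 for the 6 late factors. With bleomycin, where nothing was called, the medians of these 5 roles lay between -0.51 and -0.71. With MMS the medians were -0.60 for the helicases, all 10 below 0, -0.82 for the nucleolar factors and 0.40 for the late factors, where 4 of 6 estimates were above 0. Of all genes tested, 39.7% had an MMS estimate below 0 and 60.3% above. For the late factors the MMS median was 0.07 without the low-3′ arrays and -0.92 among arrays with a high ACT1 5′ signal, where 5 of 6 estimates were below 0. The helicases (-1.12 and -1.01) and nucleolar factors (-1.25 and -1.09) stayed below 0 in both. Differences between roles were not tested.

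The differences between agents were tested within the same fit. Cisplatin and bleomycin share a control array on 1 day. Between them 0 genes were called (0.0967% of all genes higher, 0.0387% lower). An unadjusted p under 0.05 was found for 0 of the 48 and for 246 of all 5172 genes tested. The differences ran from -1.38 to 0.68 with a median of -0.08, and their standard errors ran from 0.287 to 1.13, and calls missed at this precision do not show that the agents act alike. The largest were those of DBP2, RIX1 and NSA2, at -1.38 ± 0.813, -1.08 ± 0.537 and -0.87 ± 0.880 (adjusted p = 0.9998 for each). In the fit without the low-3′ arrays 2 genes were called lower with cisplatin than with bleomycin, RPF1 (-0.97 ± 0.216, adjusted p = 0.0448) and NSA2 (-1.09 ± 0.234, adjusted p = 0.0354), where 1.3% of all genes were.

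MMS minus bleomycin gave 4 genes higher and 3 lower, where 36.5% of all genes were called, 26.1% higher and 10.4% lower. The 4 were those called higher with MMS, and the 3 were SPB4 (-1.80 ± 0.435, adjusted p = 0.00762), BRX1 (-1.48 ± 0.530, adjusted p = 0.0468) and NOG2 (-0.91 ± 0.326, adjusted p = 0.0463). Leaving out 1 array gave 1 to 6 calls in all (24.9% to 37.3% of all genes), among which 1 to 5 of these 7 remained. The count was 2 or fewer without control replicate 4, 9, 10 or 11, any of the MMS arrays or bleomycin replicate 1. The direction depended on the setting. Among arrays with a high ACT1 5′ signal, 26 genes were called lower and 2 higher (25.9% and 33.7% of all genes). Without the low-3′ arrays 15 were called lower and 8 higher (20.6% and 33.5%). With the ACT1 5′ class as block too, 20 were called lower and 1 higher (46.2% of all genes called).

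MMS minus ethanol gave 17 genes lower and 1 higher (30.6% of all genes were called, 11.3% lower and 19.4% higher), with a median of -1.94. The gene called higher was IPI1, at 1.92 ± 0.419 (adjusted p = 0.00525). IPI1 read 6.13 to 6.26 with MMS and 5.35 and 5.14 with ethanol, and the value sets its changes from the same-day controls against each other. Those were 1.09, 0.89 and 0.73 with MMS and -1.77 and -0.26 with ethanol, where control replicate 6 had the highest IPI1 level of the controls (7.12). The call ended without ethanol replicate 1 or control replicate 6. Leaving out control replicate 6 left 9 calls (16.6% of all genes), and leaving out control replicate 7 left 11 (16.9%). Leaving out ethanol replicate 1 or 2 left only 1 ethanol array. NOC3, MAK21, SSF1 and MAK16 were called lower with MMS and higher with ethanol, where 17% and 3.89% of all genes were so called. The share of all genes called in both of these ways was not counted. Among arrays with a high ACT1 5′ signal, SSF1 changed by 0.08 with MMS. TIF6 was called higher with both, but its ethanol arrays (8.14 and 7.90) and its MMS arrays lay inside the range of the controls (6.29 to 9.13). Among arrays with a high ACT1 5′ signal, TIF6 changed by -0.57 with MMS.

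MMS minus NaCl gave 10 genes lower and 6 higher, where 62.6% of all genes were called, 17.6% lower and 45% higher. The 6 were NSA2 (2.72 ± 0.927, adjusted p = 0.0233), RRS1 (2.50 ± 0.748, adjusted p = 0.0126), NSA1 (2.41 ± 0.909, adjusted p = 0.0359), REI1 (2.13 ± 0.836, adjusted p = 0.0428), RPF1 (1.93 ± 0.690, adjusted p = 0.0289) and NOP12 (1.26 ± 0.499, adjusted p = 0.044). Each of the 6 read lower in NaCl replicates 2 and 3 than in replicate 1. NOP12, NSA1, RRS1 and REI1 lay under the limit of the filter (3.79) in replicates 2 and 3, and RPF1 in replicate 3. The sizes of these differences are therefore uncertain. When the low-3′ arrays were left out, 38 genes were called lower and 0 higher (17.6% and 29.7% of all genes). Leaving out NaCl replicate 1 gave 31 calls (76.2% of all genes), and leaving out NaCl replicate 3 or control replicate 3 left 10 (52.3% and 52.2%). SPB4, SPB1, SSF1 and NOG2 were called lower with MMS and higher with NaCl, where 17% and 13.9% of all genes were so called. The share of all genes called in both of these ways was not counted.

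Ethanol minus NaCl gave 14 genes higher and 3 lower, where 36.1% of all genes were called, 26.4% higher and 9.69% lower. The 3 were SPB4 (-2.03 ± 0.492, adjusted p = 0.0171), NOG2 (-1.76 ± 0.369, adjusted p = 0.0146) and IPI1 (-1.17 ± 0.414, adjusted p = 0.0451). The count depended on single arrays. It was 44 without NaCl replicate 1 (69.7% of all genes) and 10 without control replicate 4 (20.1%). It was 3 or fewer without control replicate 3, 6 or 7 or NaCl replicate 2 or 3 (0% to 6.48%). Leaving out ethanol replicate 1 or 2 left only 1 ethanol array. With the low-3′ arrays left out it was 5 higher and 3 lower (11.2% and 4.27% of all genes).

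2 of the genes have a second probe set, which followed the one used with some agents and not with others. The values here are plain means of the same-day differences, not fitted changes, in the order of the probe set used and the other. For NOG2 the changes were 0.78 and -0.70 with NaCl, -1.62 and -0.41 with MMS and -0.95 and 0.03 with ethanol. They were closer with bleomycin (-0.73 and -0.69) and cisplatin (-0.71 and -0.88). For DBP2 the changes were 1.47 and -0.84 with ethanol, and went the same way with cisplatin (-2.23 and -1.56), bleomycin (-0.74 and -0.50) and NaCl (-0.34 and -0.56). With MMS they were -0.43 and -0.02. The dimmer probe sets had mean signals of 4.66 and 5.21 against 7.81 and 7.63. The NOG2 gene carries an intron that hosts a small nucleolar RNA, as background, and which part of the gene each probe set reads is not given in the sources used here.

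Other lists of ribosome production genes were read from the same fit. With ethanol, where 3.89% of all genes were called higher, 57 genes of the small-subunit processome had a median of 1.23 and 9 called higher. Of the 57, 38 (66.7%) lay above all 11 controls, against 16.8% of all genes. With MMS, where 17% of all genes were called lower and 33.6% higher, that list had 12 called lower and 3 higher, with a median of -0.16. With bleomycin and cisplatin its medians were -0.55 and -0.64 with 0 called, where 1.89% and 0.464% of all genes were. 37 further large-subunit biogenesis genes had medians of 0.81 with ethanol (6 called higher) and -0.06 with MMS (8 lower and 5 higher). 15 genes of RNA polymerase I and its factors, which make the ribosomal RNA, had 0 called with ethanol and a median of 0.48. With ethanol 3 of them, and 1237 of all 5172 genes tested, had an unadjusted p under 0.05. With MMS their median was 0.16. Differences between the lists were not tested. Some members lie next to genes of these lists in the genome annotation (R64), namely NSA2 beside LCP5, SSF1 beside RRP3, RIX1 beside UTP9, NOG2 beside ESF2, RIX7 beside GRC3 and DBP2 beside RPC19.

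Of 10 listed regulators of ribosome genes, 8 were tested. With MMS 5 were called, all higher, where 33.6% of all genes were called higher and 50.6% called at all. SFP1, an activator of ribosome biogenesis genes, changed by 2.38 ± 0.275 (adjusted p = 3.43e-05), and DOT6, a repressor that binds their promoters, by 1.13 ± 0.205 (adjusted p = 0.000812). IFH1 and HMO1, which act at ribosomal protein genes, changed by 1.03 ± 0.315 (adjusted p = 0.0173) and 1.00 ± 0.375 (adjusted p = 0.0429), and SCH9, a growth-signalling kinase, by 0.73 ± 0.254 (adjusted p = 0.0318). With ethanol, where 3.89% of all genes were called higher, TOD6, a relative of DOT6, was called at 3.00 ± 0.786 (adjusted p = 0.0499). With NaCl, where 13.9% of all genes were called higher and 37.8% lower, SCH9 was higher (1.22 ± 0.246, adjusted p = 0.00368). HMO1 was lower there (-0.98 ± 0.363, adjusted p = 0.0409). Single regulators were not followed through the alternative settings. RAP1 and STB3 were not called with any agent, and 0 of the 8 were called with bleomycin (1 at an unadjusted p under 0.05) or cisplatin (0). Of all genes, 1.89% and 0.464% were called with these 2 agents, and 532 and 653 of the 5172 tested had an unadjusted p under 0.05.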

How the data were processed

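24 S98 arrays of 1 yeast strain were read as the log2 signals that the authors deposited. How they summarised and normalized the probes is not given in the sources used here. Per the labels' protocols, poly(A)+ RNA was primed with oligo(dT), amplified and hybridized. Deposited array medians ran from 5.33 to 5.63. No 2 arrays held identical values.

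Values were quantile-normalized. Of 9335 probe sets, 60 were controls, 6504 had 1 gene, 328 several and 2443 no name here. The probe set with the highest mean stood for a gene, and genes above the 20th percentile of signal (3.79) were tested. limma 3.58.1 (R 4.3.3) was fitted over 24 arrays with 5 agent terms and the day of the title as a block (8 residual degrees of freedom), with eBayes and an intensity trend. A gene counted as called where its p, adjusted over all genes tested (Benjamini-Hochberg), was under 0.05. Figures used Python 3.11.15 and matplotlib 3.10.9. The pairing comes from the day in the titles. Same-day deviations correlated above 0.1 in 6 of 13 pairs and below -0.1 in 5 (-0.57 to 0.68).

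The members, lists, settings and the ACT1 limits were chosen with earlier results of these data known. Values are given for up to 6 called members per agent with the largest change and the same sign every day, the brightest member of each role, members called against the majority, and up to 3 with the largest change where none was called. Members called only between agents, or beyond these, are counted or named only. Alternatives covered the normalization, filter, pseudocount, probe sets, block, arrays fitted, ACT1 signal and leaving out each array. On simulated data with 5172 genes, changes of 2 on the log2 scale were recovered in 86.6% of cases for bleomycin and 79.1% for MMS. The rates were 67.2% for cisplatin, 83.6% for NaCl and 70.1% for ethanol. Changes of 1 were recovered in 47.8%, 32.8%, 14.9%, 46.3% and 17.9%, in the same order. Each rate rests on 67 changed genes and holds for the simulated data only. Recovery on the real arrays, among them the low-3′ arrays, was not tested. The rates are therefore not the power of the tests reported above, including those of bleomycin and cisplatin. Precision is low because each group has few arrays.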

Additional observations from a re-analysis of the deposited data

How the results depend on the processing

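The values are counts of the 48 genes called, with the share of all genes tested that was called in the same fit in brackets, in the same order. With median scaling bleomycin, cisplatin and ethanol minus NaCl had 1, 1 and 26 (2.82%, 0.715% and 44.8%), and with values as deposited bleomycin and cisplatin had 1 each (3.15% and 1.12%). Without the day block (no replicate block), and also with the day as a random block (correlation 0.0408), ethanol, MMS minus bleomycin and MMS minus ethanol had 19, 2 and 31 (11.7%, 23.8% and 40.5%, and 11.6%, 24.3% and 40.8% with the random block). With ethanol replicate 1 as its own day, ethanol, MMS minus ethanol and ethanol minus NaCl had 1, 9 and 1 (1.53%, 16.6% and 2.4%). With only the arrays compared and their controls, bleomycin, NaCl, ethanol, MMS minus bleomycin, MMS minus NaCl, MMS minus ethanol and ethanol minus NaCl had 10, 0, 37, 14, 10, 30 and 0 (9.69%, 0.0193%, 31.4%, 47.5%, 50.9%, 35.8% and 0%). With the ACT1 5′ class as block in place of the day, bleomycin, cisplatin, ethanol, MMS minus ethanol and ethanol minus NaCl had 2, 1, 23, 35 and 28 (4.93%, 1.26%, 11.8%, 31.5% and 38.1%). With the ACT1 5′ signal as covariate, MMS, NaCl, ethanol, MMS minus bleomycin and MMS minus NaCl had 9, 1, 14, 1 and 6 (25.5%, 10.7%, 7.21%, 12.9% and 14.1%). Without the low-3′ arrays, bleomycin, MMS, cisplatin, NaCl and ethanol had 13, 37, 22, 27 and 42 (10.9%, 62.8%, 20%, 16.6% and 42.8%), and MMS minus bleomycin, MMS minus NaCl, MMS minus ethanol, cisplatin minus bleomycin and ethanol minus NaCl had 23, 38, 41, 2 and 8 (54.1%, 47.3%, 56.7%, 1.95% and 15.5%). 3 further settings were chosen after seeing the data. Within the high ACT1 5′ class bleomycin, MMS, cisplatin and MMS minus bleomycin had 13, 44, 18 and 28 (19.5%, 70.7%, 16.4% and 59.6%). Within the low class NaCl, ethanol and ethanol minus NaCl had 1 each (7.52%, 1.22% and 2.15%). With the class as block and without the low-3′ arrays, bleomycin, MMS, cisplatin, NaCl and ethanol had 9, 39, 10, 34 and 33 (12.5%, 58.2%, 6.65%, 20.1% and 28.9%), and MMS minus bleomycin, MMS minus NaCl, MMS minus ethanol, cisplatin minus bleomycin and ethanol minus NaCl had 21, 46, 43, 1 and 7 (46.2%, 38.1%, 48.7%, 1.51% and 14.9%). Leaving out 1 array gave 0 to 0 for bleomycin (0.483% to 1.24%), cisplatin and cisplatin minus bleomycin (up to 0.271% and 0.0967%). It gave 6 to 12 for MMS (36.5% to 40.7%), 2 to 33 for NaCl (15.8% to 71.8%) and 0 to 1 for ethanol (0.116% to 1.53% with a control left out). It gave 1 to 6 for MMS minus bleomycin (24.9% to 37.3%) and 10 to 31 for MMS minus NaCl (49.9% to 76.2%). It gave 9 to 22 for MMS minus ethanol (16.6% to 28%) and 0 to 44 for ethanol minus NaCl (0% to 69.7%). In all, 144 counts stayed within 1.5 times and 96 did not, and the cause was not tested. Some estimates changed sign. For MMS, RRS1, YTM1 and TIF6 were -0.16, -0.35 and -0.41 with the class as block, -0.36, -0.60 and -0.57 within the high class, and -0.18, -0.37 and -0.41 with the class as block without the low-3′ arrays, where SSF1 was 0.0014 (0.08 within the high class). For NaCl without the low-3′ arrays, DBP3, CIC1, NSA1 and NSA2 were 1.05, 0.62, 0.38 and 0.87, and 1.44, 1.58, 0.55 and 2.18 with the class as block too. For MMS minus NaCl, NOP12, RRS1 and NSA2 were -0.16, -0.30 and -0.83 with the class as block. Without the low-3′ arrays NOP12, RPF1, NSA1, NSA2 and REI1 were -0.22, -0.25, -0.59, -0.21 and -0.51, and with the class as block too NOP12, RPF1, NSA1, RRS1, NSA2 and REI1 were -1.22, -1.14, -1.10, -2.19, -3.34 and -0.61.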
